A study of Oryza sativa Japonica Group with 6 samples.

Results

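Rice plants in which OsSKIPa was overexpressed (line S58S) or suppressed (line S59R) were set, as one side, against wild-type plants of the variety Zhonghua11, to find transcripts that differed from wild type in both lines whatever had been done to OsSKIPa. The transgenic side held 4 arrays, 2 from the overexpression line (biological repeats 1 and 2) and 2 from the suppression line (repeats 1 and 3), and the wild-type side held 2, which made up all 6 arrays used here. Of 57381 probe sets on the Affymetrix rice array, 57194 were considered once 123 manufacturer controls and 64 reporter probe sets had been set aside. The labels give OsSKIPa as a splicing factor and state that its level in the transgenic plants was tested beforehand by real-time RT-PCR. No probe set carried its name in the tables used here, so OsSKIPa itself was not analysed.

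Transgenic seeds were germinated on MS medium with hygromycin for S58S or G418 for S59R, and the labels note no selection for wild type. All plants went to hydroponic culture as seedlings of 10 days and were collected at 1 month. Each line is a single named line, and the labels describe the material as shoots in one place and as whole plants in another. The promoters and the constructs are not given in the sources used here. Both lines differ from wild type at least in carrying a transgene and in having been selected as well as in OsSKIPa. These, and any other difference in how the lines were made, cannot be told apart in this comparison. P-values measure the spread between these samples only.

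SKIP proteins are conserved nuclear proteins that take part in pre-mRNA splicing and act as transcriptional co-regulators. Among the pathways followed here, jasmonate signalling is held in check by the JAZ proteins of the TIFY family, which repress transcription factors until jasmonate triggers their destruction. Abscisic acid signalling is held in check by a clade of type 2C protein phosphatases.

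Array medians lay between 58.6 and 66.2 on the deposited intensity scale, a largest ratio of 1.13. Correlations of log2 signal over the 57194 probe sets considered were 0.9562 between the overexpression arrays, 0.9529 between the suppression arrays and 0.9549 between the wild-type arrays. Suppression array 1 was the least like the other groups: its 4 correlations with arrays of the other groups ran from 0.9465 to 0.9475, while every pair without it was at 0.9516 or higher. Without that array the test described below called 10 probe sets higher and 8 lower, 16 of them with groups that did not overlap. The 3′ to 5′ signal ratio of the actin control was 3.43 and 3.73 in the overexpression arrays and 2.82 and 2.89 in the suppression arrays, against 2.86 and 2.75 in wild type. Of 11 green shoot markers, 10 lay above the array median in every array, and the summed signal of the 11 ran from 124668.7 to 144918.6 in transgenic arrays and from 135359.6 to 145326.8 in wild type. Of 8 root-preferred markers, 4 lay above the median in every array, with sums of 6507.7 to 11843.6 in transgenic arrays and 8239.6 to 12212.9 in wild type. Their part in the results below was not tested.

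The test was the mean of the 2 lines minus wild type in a limma fit of 3 groups, on log2(signal + 3.3), with p-values adjusted by the Benjamini-Hochberg method over all 30315 probe sets that passed the filter on dim signals. A probe set was called at an adjusted p under 0.05. Differences are given on this log2 scale, where the added 3.3 makes those of dim probe sets too small.

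Few probe sets were called in the mean of both lines, and a call did not need a change in both. With 2 arrays per group, a missing call does not show that a probe set was unchanged. Several of those called higher were bright in every transgenic array and near the bottom of the scale in both wild-type arrays. The test called 27 probe sets, 0.0891% of those tested. Of these, 15 were higher (0.0495%) and 12 lower (0.0396%). All 15 higher ones had the 4 transgenic arrays above both wild-type arrays, against 6 of the 12 lower ones with all 4 below. Called probe sets whose groups did not overlap numbered 21 (0.0693%), where 12.1% of all tested probe sets had groups that did not overlap. The median log2 difference of all tested probe sets was -0.012. An unadjusted p under 0.05 was met by 2466 probe sets, or 8.13%.

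The number of calls depended on single arrays, and so did their identity. Each fit without 1 array also called probe sets outside the 27. Higher calls numbered 29 without overexpression array 2. Lower calls numbered 6 without overexpression array 1, 2 without wild-type array 1 and 26 without wild-type array 2. Calls with groups that did not overlap also changed in number. Groups overlap less easily with 1 array fewer, so such counts cannot be compared with the 21 of the main fit. A fit that took the 4 transgenic arrays as a single group called 14 higher and 2 lower, LOC4343074 and LOC4332910. Without the trend of variance on mean signal, limma called 4 higher, which were TIFY5, LOC4331576, Os.54747.1.S2_at and Os.51375.1.S1_at, and 0 lower, where 1319 lower ones had an unadjusted p under 0.05.

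TIFY5, also named JAZ2, a member of the JAZ family of jasmonate repressors, had the largest difference. Its signal was 1634.3 and 792.5 in the overexpression arrays and 1205 and 1275.4 in the suppression arrays, against 1.8 and 2 in wild type. All 4 transgenic arrays were far above their array medians and both wild-type arrays far below. The log2 difference was 7.84 ± 0.28 (standard error, adjusted p = 6.03e-05). With wild type raised to the array median, the signal was at least 19-fold higher in the transgenic plants. In bulk plant samples, fewer cells of a type and less RNA per cell cannot be told apart, here or below. The overexpression line differed from wild type by 7.78 ± 0.32 and the suppression line by 7.90 ± 0.32, and both estimates share the same 2 wild-type arrays. The difference between the lines, which uses no wild-type array, was -0.12 ± 0.32 (adjusted p = 0.861). TIFY5 was called in all 6 fits that left out 1 array.

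LOC4340325, a gene without a symbol in the gene table, showed a comparable pattern. One of its probe sets read 2021.3 and 2304.7 in the overexpression arrays and 1834.2 and 1966.3 in the suppression arrays, against 7.1 and 30 in wild type. The 4 transgenic values lay within a narrow band, and the log2 difference was 6.77 ± 0.38 (adjusted p = 0.000798), or at least 32.3-fold. The 2 lines gave much the same estimate, 6.86 for overexpression and 6.68 for suppression. A second probe set assigned to the same gene did not show it. That one read 171.4 and 165 in the overexpression arrays and 180.8 and 228 in the suppression arrays, against 157.1 and 174.7 in wild type, a log2 difference of 0.15. The difference therefore belongs to 1 probe set and not to every probe set of LOC4340325.

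LOC4331576 was higher in both lines and by more in the suppression line. It read 124.7 and 152.4 in the overexpression arrays and 438.2 and 492.8 in the suppression arrays, against 4.8 and 3.1 in wild type. The log2 difference was 5.16 ± 0.32 (adjusted p = 0.00125), or at least 4.04-fold. The lines themselves differed by -1.73 ± 0.37 (overexpression minus suppression, adjusted p = 0.0326), and this was the only one of the 15 higher probe sets for which they did.

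**Figure D1:**
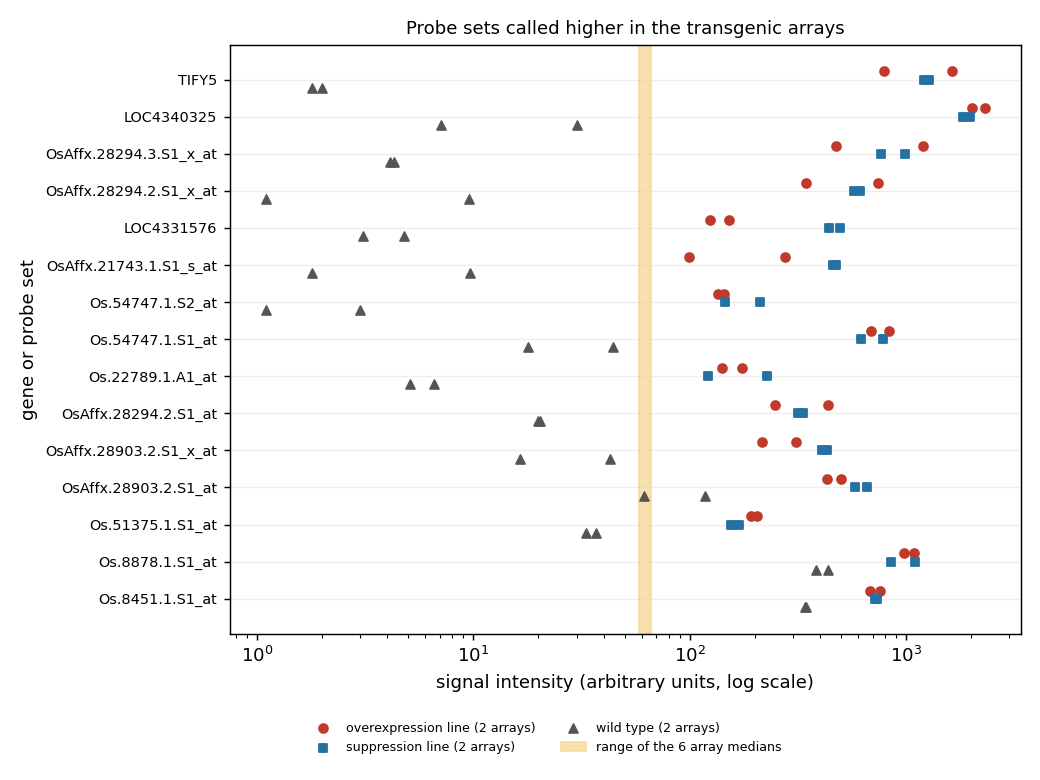
Signal intensity (log axis, arbitrary units) of the 15 probe sets called higher, with 1 point per array for the overexpression line, the suppression line and wild type, and a band for the range of the 6 array medians. In 12 of the 15, both wild-type arrays lay below their array median, while all 4 transgenic arrays lay above theirs in every row.

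The other 12 higher probe sets had no gene in the platform's table, and are given by probe set name. The 3 called genes and these 12 fell into 11 clusters by the stem of their identifiers, and probe sets with 1 stem may read the same transcript. The cluster OsAffx.28294 held 3. OsAffx.28294.3.S1_x_at read 1196.9 and 474.9 in the overexpression arrays and 765.1 and 993.2 in the suppression arrays, against 4.1 and 4.3 in wild type, a log2 difference of 6.76 ± 0.35 (adjusted p = 0.000554). OsAffx.28294.2.S1_x_at differed by 6.2 and OsAffx.28294.2.S1_at by 3.82. The overlap of their probes was not examined, so their common direction is not 3 separate observations.

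Os.54747 held 2 called probe sets. Os.54747.1.S1_at read 686.2 and 830.4 in the overexpression arrays and 781.4 and 621.2 in the suppression arrays, against 44.2 and 17.8 in wild type, a log2 difference of 4.52 ± 0.30 (adjusted p = 0.00198). Os.54747.1.S2_at differed by 4.92 ± 0.45 (adjusted p = 0.00871), with adjusted p up to 0.0742 when overexpression array 1 or suppression array 1 was left out. OsAffx.28903 held 2 called probe sets, at 3.47 (lost without either suppression array) and 2.61, and 1 more probe set, OsAffx.28903.1.S1_x_at, with a difference of 2.16 and an adjusted p of 0.0528. In that probe set, the 4 transgenic arrays (115.3 to 204) were still all above the wild-type arrays (37.9 and 26.4).

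Each of the 5 remaining higher probe sets had a stem of its own. OsAffx.21743.1.S1_s_at read 274.4 and 99.1 in the overexpression arrays and 474.2 and 458.6 in the suppression arrays, against 9.7 and 1.8 in wild type (log2 difference 5.11 ± 0.51, adjusted p = 0.0127). Its values spread most among the overexpression arrays, and its call was lost without either suppression array. Os.22789.1.A1_at read 120.9 to 226.5 in transgenic arrays and 6.6 and 5.1 in wild type (4.17 ± 0.41, adjusted p = 0.0127), and its call was lost without overexpression array 1 or 2, suppression array 1 or wild-type array 1.

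Os.51375.1.S1_at, Os.8878.1.S1_at and Os.8451.1.S1_at had smaller differences, of 2.26, 1.29 and 1.07 (each adjusted p = 0.0193). Os.8451.1.S1_at is the tightest of them, at 755.2 and 680.4 in the overexpression arrays and 721.9 and 732.3 in the suppression arrays, against 344.9 and 340.2 in wild type. Its 4 transgenic values and its 2 wild-type values formed separate, narrow groups. Their calls were unstable: Os.51375.1.S1_at was called in none of the 6 fits that left out 1 array, Os.8878.1.S1_at in 2 (without overexpression array 2 or suppression array 3) and Os.8451.1.S1_at in 1 (without overexpression array 2).

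A pattern of presence and absence was counted after the values had been seen, and is given as a description. In 7 probe sets, all 4 transgenic arrays lay above their array median, both wild-type arrays lay below 0.25 of theirs, and the gap between them was at least 10-fold. No probe set on the array showed the reverse, with both wild-type arrays above the median and all 4 transgenic arrays that far below. TIFY5 and LOC4331576 were among the 7, and the other 5 had no gene name.

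The 12 lower probe sets contained no such pattern, and none had an array below the array median. They fell into a group that was lower in both lines alike and a group that was low in the suppression line. In 3 probe sets the groups did not overlap and the difference between the lines was not called. LOC4343074 read 175.5 and 197.5 in the overexpression arrays and 163.9 and 146.2 in the suppression arrays, against 767.5 and 665.5 in wild type. The transgenic values lay close together, and the log2 difference was -2.05 ± 0.16 (4.15-fold lower, adjusted p = 0.00339), with -1.92 in the overexpression line and -2.18 in the suppression line.

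LOC4332910 read 687.7 and 621.5 in the overexpression arrays and 877 and 715.9 in the suppression arrays, against 2105.2 and 1846.7 in wild type. Its log2 difference was -1.45 ± 0.12 (2.73-fold lower, adjusted p = 0.00657), with -1.59 in the overexpression line and -1.31 in the suppression line. The gene table gives neither gene a symbol or a role. Both calls were lost when wild-type array 1 was left out, with adjusted p of 0.064 for LOC4343074 and 0.0905 for LOC4332910. Os.9421.1.S1_at, which has no gene, read 1372.5 and 1078.3 in the overexpression arrays and 989.1 and 1072.6 in the suppression arrays, against 3804.4 and 2411 in wild type (-1.43 ± 0.18, adjusted p = 0.0482). Its 2 wild-type values were far apart, and it was called in only 1 of the 6 fits that left out 1 array, the one without wild-type array 2.

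In the other 9 lower probe sets the lines differed from each other. LOC4324556 read 1138.3 and 895.9 in the overexpression arrays and 126.2 and 97.7 in the suppression arrays, against 1272.3 and 1352 in wild type. Although the 4 transgenic arrays were all below wild type, the overexpression line differed from wild type by -0.38 and the suppression line by -3.52, and the lines differed by 3.15 ± 0.18 (adjusted p = 0.000337). LOC4350213 and Os.39764.1.S1_x_at were likewise below wild type in all 4 arrays, with overexpression differences of -0.30 and -0.32 and suppression differences of -1.25 and -2.56. A second probe set of LOC4350213 differed by -0.23, and its overexpression arrays (7092.5 and 6567.3) were above the wild-type arrays (5699.3 and 5784.8).

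In the remaining 6 the overexpression arrays overlapped wild type or lay above it. LOC4327002 read 1774.7 and 1947.3 in the overexpression arrays and 106.8 and 125.3 in the suppression arrays, against 1623.5 and 1138 in wild type. Its mean difference over both lines was -1.53, made of 0.45 in the overexpression line and -3.52 in the suppression line. Os.39764.1.S1_at, OsAffx.17950.1.S1_at, LOC4344914, LOC4344999 and LOC4334840 had overexpression differences between -0.15 and 0.15 and suppression differences between -1.15 and -3.91. The contrast averages the lines, so a call in it does not need a change in both. Of the 9 probe sets whose lines differed, Os.39764.1.S1_at held its call in all 6 fits that left out 1 array, and LOC4324556 lost it without wild-type array 1 (adjusted p = 0.0572). LOC4334840 and LOC4350213 were called in none of the 6 fits, and the other 5 in 2 or 3, losing the call without 1 or both wild-type arrays among others.

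**Figure D2:**
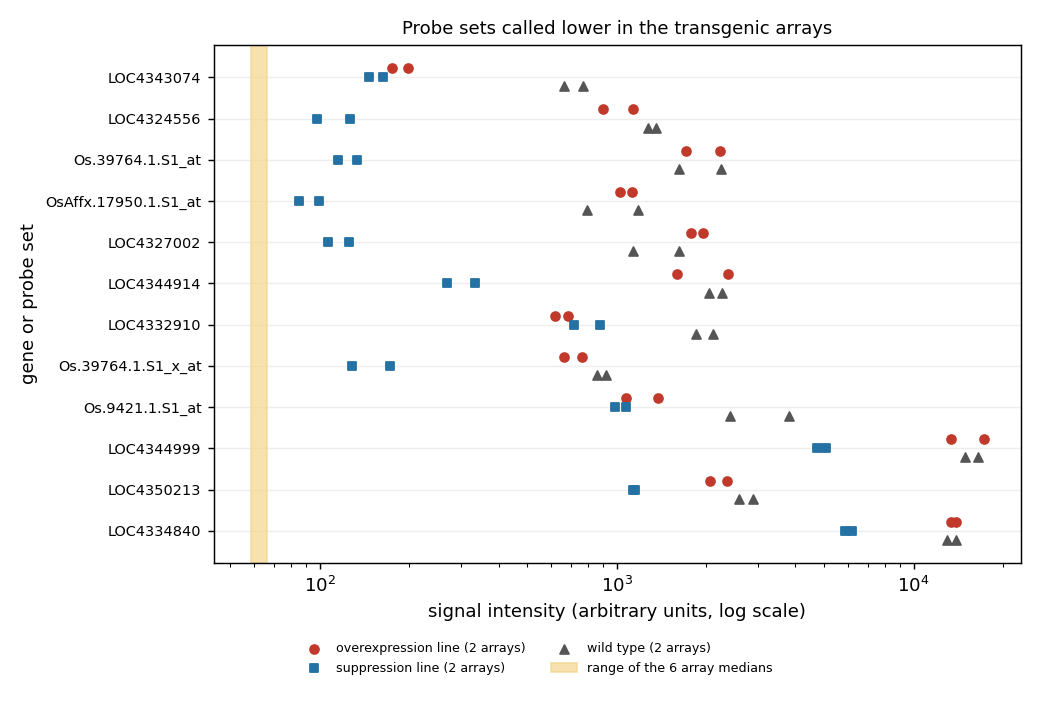
Signal intensity (log axis, arbitrary units) of the 12 probe sets called lower, with 1 point per array for the overexpression line, the suppression line and wild type, and a band for the range of the 6 array medians. Both lines lay below wild type in LOC4343074, LOC4332910 and Os.9421.1.S1_at, while in most other rows only the suppression arrays were far from wild type.

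With the line differences set against the calls, 17 of the 27 probe sets were called, did not overlap between the groups and showed no called difference between the lines. A missing call does not show that the lines were equal. Among all tested probe sets, 1987 (6.55%) differed between the lines. Of the 27 called here, 10 did, 1 higher and 9 lower in the mean of both lines. The 17 included TIFY5, LOC4340325, LOC4343074, LOC4332910 and 13 probe sets without a gene name.

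**Figure D3:**
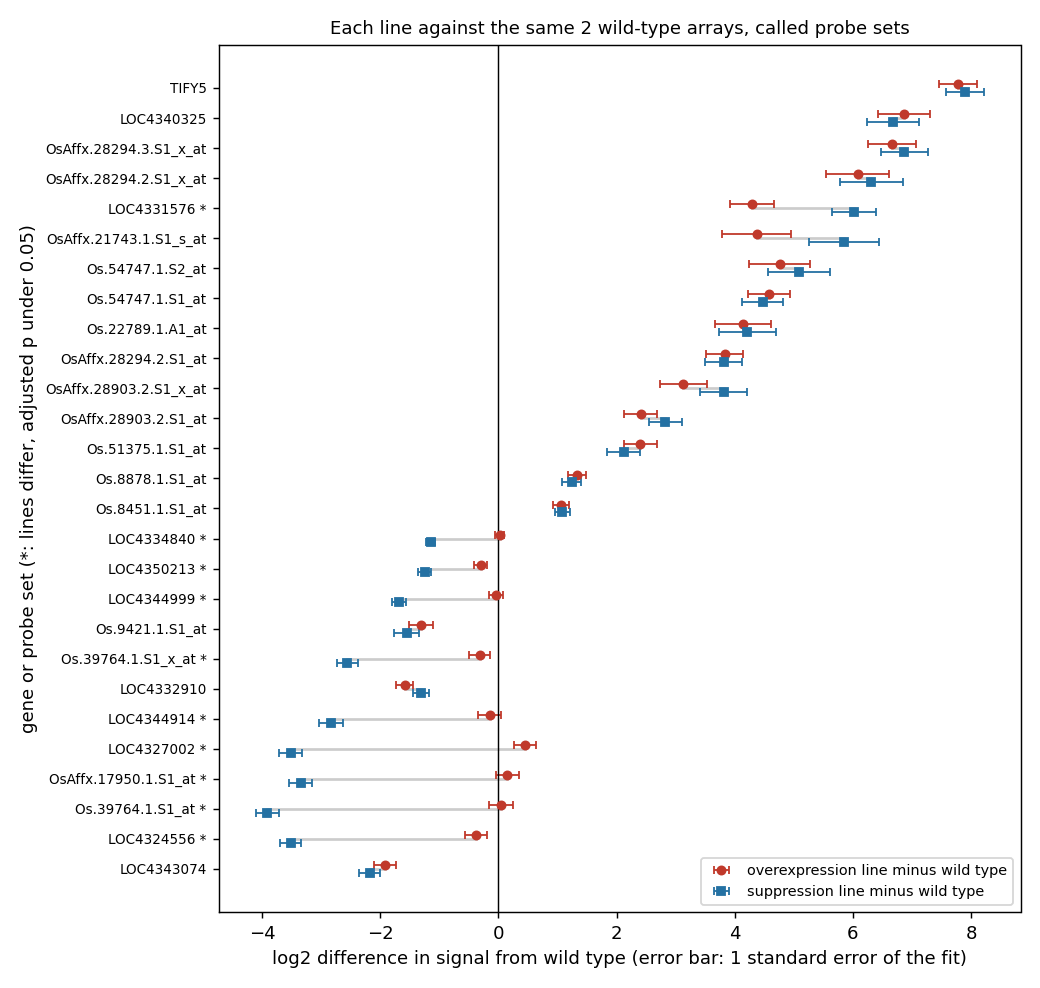
Log2 difference from wild type of the overexpression line and of the suppression line for the 27 called probe sets, with bars of 1 standard error of the fit. Both lines share the 2 wild-type arrays, and an asterisk marks the 10 probe sets for which the lines differed from each other, such as LOC4327002 at 0.45 and -3.52.

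Genes next to TIFY5, LOC4340325, LOC4332910 and LOC4343074 on the chromosome were read for comparison, using only the gene order of assembly ASM3414082v1. The 6 nearest measured genes of TIFY5 had log2 differences between -0.15 and 0.01. Those of LOC4332910 lay between -0.22 and 0.10 and those of LOC4343074 between -0.15 and 0.17. Near LOC4340325 the lowest was PHT1, at -1.47 (adjusted p = 0.408). None of these 24 neighbours was called, but only 0.0891% of all tested probe sets were, so this is not read as a result. The groups did not overlap for PHT1, which was lower, and for BOP1, near LOC4343074, which was higher (0.17). Among all tested probe sets, 12.1% had groups that did not overlap.

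Among genes with a symbol, TIFY5 was the only one called on the deposited scale. The next ones by unadjusted p did not pass the test and are given by value. With the arrays scaled to a common median, 4 of them did pass, namely OsPP2C08 (adjusted p = 0.0151), EIL1B (0.00921), PP2C30 (0.0298) and HSFB2C (0.0348). OsPP2C08, a type 2C protein phosphatase, read 572.4 and 479 in the overexpression arrays and 984.5 and 814.5 in the suppression arrays, against 387.4 and 309.6 in wild type. The groups did not overlap and the log2 difference was 0.98 ± 0.15 (adjusted p = 0.0891). HSFB2C, a heat stress transcription factor, read 352.6 and 278.6 in the overexpression arrays and 252 and 193.4 in the suppression arrays, against 563.2 and 571.4 in wild type, a difference of -1.10 ± 0.17 (adjusted p = 0.0832). Its 2 other probe sets differed by -0.81 and -0.39.

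The groups of 3 other symbols did not overlap, but the test was not passed. BURP2, a BURP domain protein, differed by 0.65 ± 0.14 (adjusted p = 0.266). BZIP52, a bZIP transcription factor, differed by -0.74 ± 0.15 (adjusted p = 0.218). The gene listed as HSFA2D differed by -0.73 ± 0.16 (adjusted p = 0.26) in one probe set and by 0.08 in another. The gene table joins names of a heat stress factor and of another gene, ARD, in that entry, so which of them a probe set reads is uncertain.

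In the rest, one line carried the mean. EIL1B, a transcription factor of ethylene signalling, read 927.1 and 871.6 in the overexpression arrays and 3601.3 and 3373 in the suppression arrays, against 1098 and 696.6 in wild type, so that the mean difference of 1.01 (adjusted p = 0.109) was made of 0.04 and 1.99. PP2C30, another type 2C phosphatase, had 0.06 in the overexpression line and 2.31 in the suppression line, around a mean of 1.18 (adjusted p = 0.218). EIL1B also passed the test without wild-type array 1 (adjusted p = 0.029). CAD3, a cinnamyl alcohol dehydrogenase, CIPK2, a calcium-regulated protein kinase, and D53-L had means of 0.51, 0.38 and 0.32, with overexpression differences of 0.14, 0 and 0.

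IVD, an enzyme of leucine breakdown, had a mean of -0.56 (adjusted p = 0.0793) with 0.05 in the overexpression line and -1.16 in the suppression line, and PHOT1A, a blue light receptor, a mean of -0.38 with 0.36 and -1.11. The order was turned for the metallothionein MT4C, at -1.30 in the overexpression line and 0.21 in the suppression line around a mean of -0.54 (adjusted p = 0.135). Metallothionein MT1B and OPR5, an oxophytodienoate reductase family member whose entry in the gene table also carries the name OPR6, had means of -0.44 and -0.90, with overexpression differences of -0.73 and -1.57 and suppression differences of -0.16 and -0.24. The ammonium transporter AMT1-2 had opposite differences, of -1.63 and 0.91, which left a mean of -0.36 (adjusted p = 0.736). The actin gene ACT2 behaved likewise, at -0.44 and 0.34 with a mean of -0.05 (adjusted p = 0.888), and its sign turned under median scaling.

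The gene lists, matched by symbol, held 1 called member in all on the deposited scale, TIFY5, so they are described by counts. Of all tested probe sets, 0.0891% were called, so a list without a called member is not read as a result. Background shares were 5.71% of all tested probe sets with the 4 transgenic arrays above both wild-type arrays and 6.42% with the 4 below. In the jasmonate list, 32 genes were tested and 1 was called. The list's median log2 difference was -0.09, against -0.012 over all tested probe sets. It was 0.093 without wild-type array 1 and -0.391 without wild-type array 2.

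TIFY5 was called among the 13 JAZ and TIFY genes tested, and the other 12 were not. Only 0.0891% of all tested probe sets were called, so these missing calls are not read as a result. Of the 12, 9 had a value below 0, with a median of -0.71. These values turned on 1 array. Wild-type array 1 was the highest of the 6 arrays for 10 of the 13 genes, and 8 had at least 2-fold more signal there than in wild-type array 2. JAZ12 read 370.5 and 428.2 in the overexpression arrays and 387.2 and 411.1 in the suppression arrays, against 1942.1 and 278.4 in wild type. JAZ10 read 373.3 and 475.4 in the overexpression arrays and 697.1 and 751.2 in the suppression arrays, against 2422.9 and 418.8 in wild type. The transgenic arrays thus lay between the 2 wild-type arrays for JAZ12, as did 3 of the 4 for JAZ10. Without wild-type array 1 the median of the 12 was 0.16, with 3 below 0, and without wild-type array 2 it was -1.61, with 11 below 0. Members of the jasmonate list called without wild-type array 2 numbered 5, TIFY5 included. TIFY5 itself differed by 7.81 and 7.87 in those fits.

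**Figure D4:**
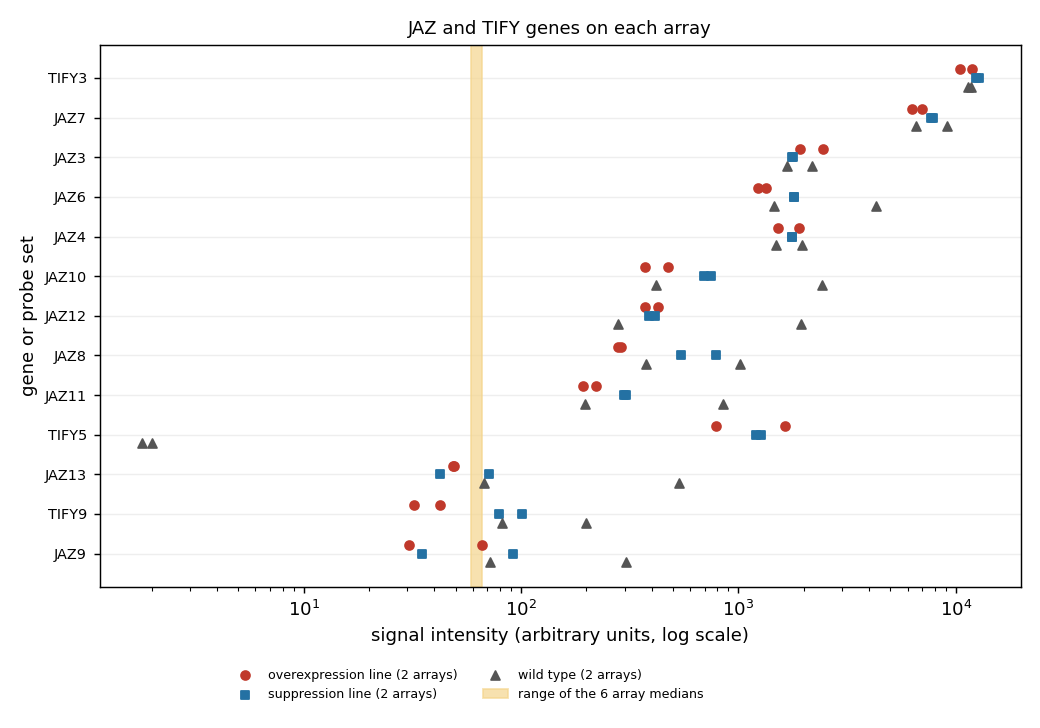
Signal intensity (log axis, arbitrary units) of the 13 JAZ and TIFY genes tested, with 1 point per array for the overexpression line, the suppression line and wild type, and a band for the range of the 6 array medians. TIFY5 is the only row with both wild-type arrays at the low end (1.8 and 2), and in 8 rows 1 wild-type array is at least 2-fold above the other.

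Elsewhere in the jasmonate list, CYP74A2, of the allene oxide synthase family, read 192 and 180 in the overexpression arrays and 134.9 and 156.6 in the suppression arrays, against 289.6 and 250.3 in wild type. The groups did not overlap, and the difference of -0.70 did not pass the test (adjusted p = 0.352).

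Abscisic acid signalling was the list with the largest share of genes above wild type without overlap among lists of 20 or more tested genes: 9 of 68 (13.2%), with 2 (2.94%) below. An unadjusted p under 0.05 was met by 10 higher and 2 lower members, where 3.69% and 4.45% of all tested probe sets met it. None was called on the deposited scale and 2 were under median scaling. The median difference was 0.06, with 0 in the overexpression line and 0.10 in the suppression line. Most genes of this list were type 2C phosphatases matched by symbol, from OsPP2C01 to OsPP2C78, and not only those of 1 clade. Which of them act in abscisic acid signalling was not examined. The 9 were mostly such phosphatases, the others being SAPK4 and aba1. PP2C06 read 1276.5 and 1268.8 in the overexpression arrays and 3309.8 and 2251.1 in the suppression arrays, against 1220.8 and 1211.8 in wild type, and PP2C68 had differences of 0.11 in the overexpression line and 1.37 in the suppression line. For both, the overexpression arrays were only slightly above wild type. OsPP2C71 was more even, with 0.43 and 0.23.

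Heat shock proteins and factors formed the list with the largest share below wild type, 6 of 39 (15.4%), with 0 above. None was called on the deposited scale and 1, HSFB2C, was under median scaling. Besides HSFB2C these were rHsf1 (-0.50), HSP24.1 (-0.59), CLPB3 (-0.43), HSFC2A (-0.53) and rHsf9 (-0.15). The list's median was -0.04 and lay between -0.092 and 0.029 when 1 array was left out, so its sign depended on the array. It was 0.029 without wild-type array 1 and 0.005 without overexpression array 2. A member called HSF6 read 288.5 and 1053.8 in the overexpression arrays and 249.4 and 842.6 in the suppression arrays, against 283.7 and 287.3 in wild type, so 1 array of each line was high.

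**Figure D5:**
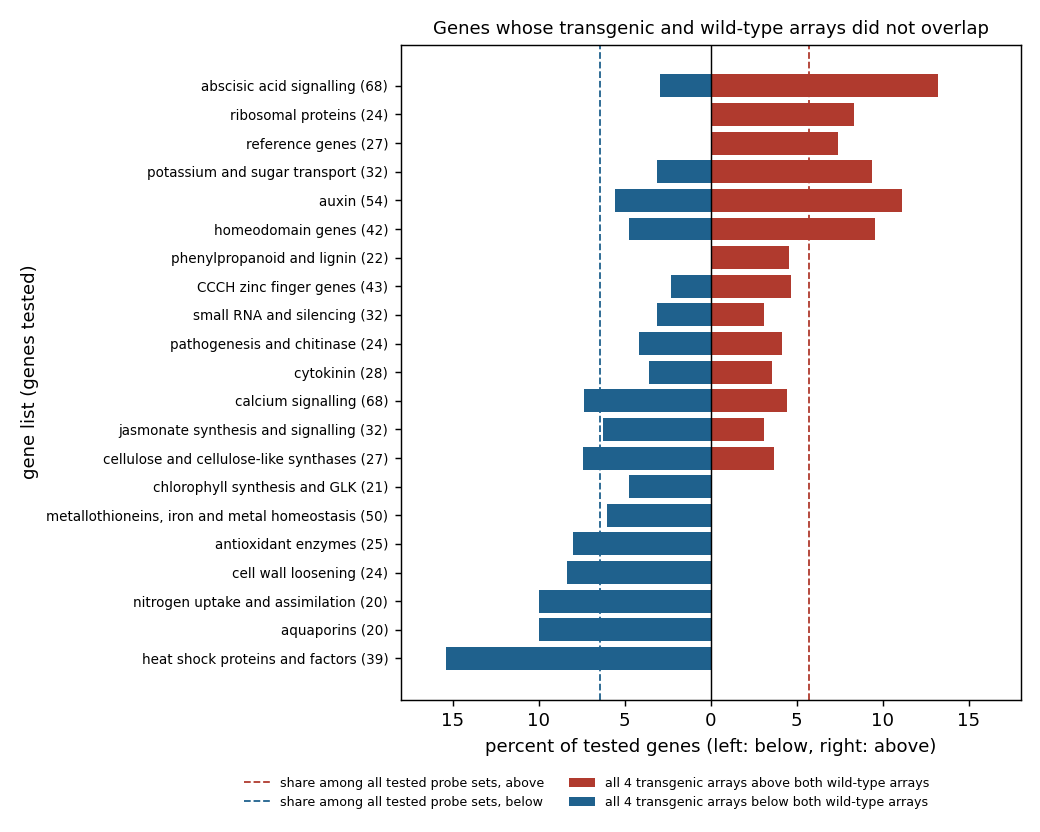
Percent of the tested genes of each list whose 4 transgenic arrays lay above (right) or below (left) both wild-type arrays, for lists of at least 20 tested genes, with dashed lines at the shares among all tested probe sets (5.71% above, 6.42% below). Abscisic acid signalling reached 13.2% above and heat shock proteins and factors 15.4% below.

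Other lists had no called member with all 6 arrays on the deposited scale, though 2 of the metallothionein and metal homeostasis list were called without suppression array 3. Auxin genes had 6 of 54 (11.1%) above wild type without overlap and 3 (5.56%) below, and all but 1 of these had an unadjusted p over 0.05. Homeodomain genes had 4 of 42 (9.52%) above. HOX2 among them read 786.2 and 656.6 in the overexpression arrays and 934.3 and 764 in the suppression arrays, against 544.4 and 380 in wild type, a difference of 0.77 (adjusted p = 0.277). WOX6 was dim, at 49.2 and 49.1 in the overexpression arrays and 41.8 and 56.8 in the suppression arrays, against 105 and 98 in wild type.

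Lists of basal leaf functions and the others below were short, and 12.1% of all tested probe sets had groups that did not overlap. Their low counts are therefore not read as a result. Light harvesting, photosystem and Rubisco genes had 0 of 15 without overlap and a median of -0.06. Splicing factors had 0 of 13 and a median of 0.01. Ribosomal proteins had 2 of 24 above (8.33%, against 5.71% of all tested probe sets), 0 below and a median of 0.02. Chlorophyll synthesis genes had 1 of 21 below (4.76%, against 6.42%) and a median of -0.02. Dehydrins and osmotic stress genes had 0 of 10 and gibberellin genes 0 of 14.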

How the data were processed

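The authors deposited 1 linear signal intensity per probe set and array, made from 6 µg of total RNA per array, per the labels' protocols. The sources used here do not name the software that summarised probes. The mean of every array, trimmed by 2% at either end, was 500.06, so the arrays had been scaled before they were deposited, and that scale was kept.

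Values were analysed as log2(intensity + 3.3), with 3.3 taken from the 10th percentile of the signals. Probe sets needed at least 2 of 6 arrays above their own median, which left 26879 untested. limma 3.58.1 in R 4.3.3 (lmFit, eBayes with a trend) was fitted to 3 groups, with two-sided tests (residual degrees of freedom 3, prior 5.2). The script was tested on simulated data. "At least" folds raise the dim group to the array median, a bound and not a detection call. The number of arrays limits the precision.

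Names came from the platform's probe table (22436 probe sets with 1 gene, 95 with several) and the gene table of assembly ASM3414082v1, where all 17905 genes were found and 2456 had a symbol. Genes were named by rule: the 15 largest called rises and falls without overlap, genes with a symbol filled up to 8 per direction by unadjusted p, up to 3 called members per list, 7 fixed symbols, and called probe sets without a name. JAZ12, JAZ10, CYP74A2, HSF6, HOX2, WOX6, the other members of lists named and neighbours were chosen after their values were seen. The members and lists were chosen with earlier results of these data known, and symbols were matched to lists after the symbol table was seen. Lists of fewer than 5 measured genes are not described. Overexpression and wild-type arrays share numbers 1 and 2, and their deviations correlated at -0.014. This shows no shared deviation, but 1 such correlation cannot exclude pairing. The samples were not treated as paired in the main fit. Alternatives covered scaling, pseudocount, filter, trend, a 2-group fit, a replicate block and leaving out each array.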

Additional observations from a re-analysis of the deposited data

Results flagged for a closer look

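In Os.54747.1.S2_at, suppression array 1 (212) stood away from the other transgenic arrays (134.8 to 145.1). On log2 signals its gap was 0.837 of the range of the 4 transgenic arrays, above Dixon's 95% limit for 4 samples. Chance passes that limit in about 1 in 20 groups. The 4 arrays come from 2 lines and are not repeats of 1 group, which the limit assumes.

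The lines differed from each other in 10 called probe sets, by the test of overexpression minus suppression in the same fit. The differences were 3.97 for LOC4327002, 3.95 for Os.39764.1.S1_at, 3.50 for OsAffx.17950.1.S1_at, 3.15 for LOC4324556, 2.69 for LOC4344914 and 2.23 for Os.39764.1.S1_x_at. They were 1.64 for LOC4344999, 1.17 for LOC4334840, 0.94 for LOC4350213 and -1.73 for LOC4331576. Only LOC4331576 was brighter in the suppression line.

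The array also carries 64 probe sets for reporter and vector sequences, which no comparison used. In the overexpression line, 1 of them had a mean signal of 13637.4, against 2.9 in wild type. In the suppression line, 3 others had means of 1699.8, 227.2 and 641.6, against 7.05, 5.45 and 51.5 in wild type. None passed the cut used for these counts in both lines. Below that cut, RPTR-Os-AY056050-1_at was still higher in every transgenic array than in wild type. It read 60.3 and 86.9 in the overexpression arrays and 92.6 and 62 in the suppression arrays, against 8.3 and 13.4 in wild type. Its part in the results was not tested.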

How the results depend on the processing

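TIFY5 and LOC4331576 were called under every alternative. Of the 27 calls, 9 held in all 6 fits that left out 1 array, and these fits gave 10 to 29 probe sets higher, 2 to 26 lower and 16 to 39 called without overlap. Groups overlap less easily with 1 array fewer, so the counts without overlap in those fits cannot be compared with that of the main fit. Median scaling gave 50 higher, 27 lower and 58 without overlap, and turned ACT2 to 0.0025. Without a variance trend, limma called 4 higher, 0 lower (1319 lower at an unadjusted p under 0.05) and 4 without overlap, and 5 of the 27 differed between the lines. The 2-group fit called 2 lower. The replicate block, which fits suppression array 3 exactly, called 10 higher (7 of them among the 15), 6 lower (2 of them among the 12) and 11 without overlap. Quantile normalization, both pseudocounts, no filter and the filter on mean signal kept all 3 counts within 1.5 times. Of 659 values of 44 named or called probe sets under alternatives, 121 lost and 5 gained a call. Of 992 list values, which were medians and counts of called members, 22 moved. A median moved if it passed the spread between arrays, and a count if it changed at all. The causes were not tested.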
